A study of Mus musculus with 74 samples.

Results

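The 10 cathepsin genes examined here are Ctsa, Ctsb, Ctsc, Ctsd, Ctsf, Ctsh, Ctsk, Ctsl, Ctss and Ctsz, taken by symbol from the 49912 genes of the count table, and all 10 had counts. They were followed through 74 RNA libraries from the brains of 37 mice, each mouse giving 1 library of microglia, sorted as viable Cd11b+ cells, and 1 of all other viable cells, called nonmicroglia here. The mice were wild type (Trem2 +/+), heterozygous (Trem2 +/-) or knockout (Trem2 -/-) for Trem2, a lipid-sensing receptor of microglia. They ate either control chow or chow with 0.2% cuprizone, a copper chelator that kills oligodendrocytes and strips myelin, for 5 weeks, to give acute demyelination, or for 12 weeks, to give the chronic form. The 12 groups of each fraction held 3 mice, except wild-type controls at 12 weeks with 2, and heterozygous controls and heterozygous cuprizone mice at 12 weeks with 4 each, and 1 mouse of every group was male. The labels name no Cre or promoter for the knockout allele and give no age. The Cd11b gate also admits border macrophages, monocytes and neutrophils.

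Cathepsins are the proteases of the lysosome. They are made as inactive proforms, carried to the acidic endosome largely by mannose 6-phosphate receptors and cut there to their active form, and cystatins and stefins inhibit the cysteine type. Ctsb, Ctsc, Ctsf, Ctsh, Ctsk, Ctsl, Ctss and Ctsz are cysteine proteases, Ctsd is an aspartic protease, and Ctsa is a serine carboxypeptidase. In brain, microglia are rich in cathepsins, which digest engulfed material such as myelin, and Ctsb, Ctsd, Ctsl and Ctsz belong to the set of genes widely reported in disease-associated microglia.

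Depth was 1043961 to 3945694 counts per microglia library (median 1782314) and 1255465 to 3441041 per nonmicroglia library (median 1705753). Levels are CPM (counts per 1000000 counts) after scaling by trimmed means, and because each transcript was read as a tag at its 3' end they are not divided by length; levels are compared between samples, not ranked between genes. Summed over the 8 microglia markers, the level was from 12213 to 38856 CPM, with a median of 22862, in microglia libraries and from 259.7 to 629.8 CPM, with a median of 366, in nonmicroglia libraries, so both fractions matched their labels and the nonmicroglia pool also gave microglial tags. In the microglia libraries the sum of 8 neutrophil markers ran from 111 to 7586 CPM, with a median of 862, and that of 8 border macrophage markers from 317 to 1539 CPM, with a median of 854. Trem2 itself was still counted in knockout microglia, at 98.8 to 256 CPM against 404 to 1037 CPM in wild-type microglia, and its 3' tags may lie outside the deleted part. Of the microglia libraries, 4 stood apart on the first principal component: wild-type control animal 9145 (12 weeks), heterozygous control 7674 (12 weeks), knockout control 945 (5 weeks) and knockout cuprizone 981 (12 weeks). Ctsl, Ctsh and Ctss followed that component most closely over the 37 microglia libraries, with Pearson r of -0.88, -0.70 and -0.70, while r was -0.14 for Ctsd and -0.42 for Ctsb. The labels give RNA integrity values for only some libraries, and no fit used them. Among the microglia libraries with a value, the lowest came from 12-week mice, animals 981 and 9145 among them. No 2 libraries agreed within sampling noise: over 2701 pairs, chi-square divided by its degrees of freedom was at least 8.99.

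On the build GRCm38, Ctsa spans chr2:164832873-164841032 on the plus strand, Ctsz chr2:174427493-174439039 on the minus strand, Ctsk chr3:95499256-95509362 and its neighbour Ctss chr3:95526786-95556403, both on the plus strand. Ctsc spans chr7:88278085-88310888 (plus), Ctsd chr7:142375911-142388038 (minus), Ctsh chr9:90054152-90076089 (plus), Ctsl chr13:64359337-64370890 (minus), Ctsb chr14:63122462-63145923 (plus) and Ctsf chr19:4855130-4860918 (plus). Whether counting used the strand is not given in the sources used here, so reads of Ctsa cannot be told from those of Pltp, which overlaps it on the other strand over 1515 bases and had a median of 8.45 CPM in microglia. On the same strand, where no strand setting would separate reads, the pseudogene Hmgb1-ps5 (median 7.04 CPM) lies inside Ctss, Gm49369 overlaps Ctsd over 6757 bases and Gm49230 overlaps Ctsl over 395 bases, so the counts of Ctss, Ctsd and Ctsl are uncertain where reads are shared.

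Several lysosomal genes share in their promoters the letters CACGTG, the core recognised by the TFEB family of transcription factors, and the sites of the cathepsins are shown so that the genes that moved together can be set beside their promoters. The sequences are RefSeq's for GRCm38.p6, read 5' to 3' on the strand of the gene in the 250 bases before each start, and the capitals mark CACGTG, which reads the same on both strands. Of the 10 genes, 8 had an entry (Ctsb and Ctsh did not match), and 4 of these held the letters. Ctsa had 2 entries, 1 with them. Starts are those of the RefSeq entries: the printed Ctsa site, the nearer Ctsd site and the Ctsl site lie inside the gene spans given above, and the windows of all 4 genes overlap an annotated exon.
Ctsa, chr2:164833751-164833772, plus strand, 12 bases before the start: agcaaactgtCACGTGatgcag
Ctsd, chr7:142388057-142388077, minus strand, 245 bases before the start: tccccCACGTGacctgtatcc
Ctsd, chr7:142387910-142387935, minus strand, 98 bases before the start: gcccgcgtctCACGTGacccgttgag
Ctsf, chr19:4855076-4855101, plus strand, 79 bases before the start: ccccgtggtcCACGTGcctcgcgtaa
Ctsl, chr13:64370741-64370766, minus strand, 236 bases before the start: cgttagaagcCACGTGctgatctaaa
Over all 32851 promoter windows of 250 bases in the table, 6.02% held CACGTG, 0.785% the longer TCACGTGA, which contains it, and 0.2405% the full 10-letter form. Counted by gene, as the cathepsins are, 6.86% of 27025 genes held CACGTG. The longer TCACGTGA was in a window of Ctsa and of Ctsd, and the 10-letter form was in no cathepsin window. Ctsc, Ctsk, Ctss and Ctsz had an entry without CACGTG. The windows of Ctsz and of Ctss are printed because in the main fit Ctsz was called with diet in microglia and Ctss was not.
Ctsz, chr2:174439040-174439289, minus strand: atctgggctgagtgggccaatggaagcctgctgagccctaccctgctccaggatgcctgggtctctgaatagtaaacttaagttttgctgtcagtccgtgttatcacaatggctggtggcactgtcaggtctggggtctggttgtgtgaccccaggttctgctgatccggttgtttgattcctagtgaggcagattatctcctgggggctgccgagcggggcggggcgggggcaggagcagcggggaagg
Ctss, chr3:95526536-95526785, plus strand: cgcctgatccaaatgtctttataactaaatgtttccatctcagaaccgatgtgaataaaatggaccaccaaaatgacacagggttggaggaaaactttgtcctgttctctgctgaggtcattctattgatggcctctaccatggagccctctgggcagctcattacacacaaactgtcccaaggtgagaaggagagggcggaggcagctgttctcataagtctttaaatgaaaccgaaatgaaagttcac
The letters were thus present in 1 gene not called with diet (Ctsf) and absent from 1 called (Ctsz). A match is a description of the sequence and not a measured binding site, and no match says only that the letters are not in this window.

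Cathepsin messages belonged overwhelmingly to the Cd11b+ fraction. The 10 genes took 1.68 to 3.10% of all counts in microglia libraries (median 2.12%) and 0.0686 to 0.137% in nonmicroglia libraries (median 0.101%). Ctss, an endopeptidase that stays active at neutral pH and trims the invariant chain of MHC class II, showed the widest gap of the 9 tested: in the 5 wild-type controls the lowest, median and highest levels were 10876, 13196 and 17428 CPM in microglia and 123, 167 and 225 CPM in nonmicroglia. Its log2 difference was 6.26 ± 0.28 (SE), with adjusted p = 2.21e-12 from edgeR's quasi-likelihood test with Benjamini-Hochberg adjustment, the test behind every adjusted p below unless another is named. A call means an adjusted p under 0.05.

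All 9 cathepsins other than Ctsk were called higher in microglia in wild-type mice on either diet, against 15.5% of the 10244 genes tested called higher in controls and 18.5% of 10881 on cuprizone. In controls the log2 difference was 3.90 for Ctsc, 3.66 for Ctsd, 3.65 for Ctsh, 3.55 for Ctsz, 3.12 for Ctsb, 2.76 for Ctsa and 2.75 for Ctsl. Ctsf, a cysteine protease of the papain family, had the least uneven split, with 105 ± 26.4 CPM in microglia and 38.5 ± 10.2 CPM in nonmicroglia (SD, n = 5), a log2 difference of 1.42 ± 0.38 (adjusted p = 0.00503). Its call was lost with the share of noncoding counts as a covariate (1.18, adjusted p = 0.152). On cuprizone the same covariate took its difference from 1.14 (adjusted p = 0.0174) to 0.00 (adjusted p = 0.998). Without the nonmicroglia library of animal 2474 it was 0.92 there (adjusted p = 0.0672). The noncoding share itself ran with the fraction, from 5.20 to 9.80% in microglia libraries and from 8.83 to 16.6% in nonmicroglia libraries. That covariate therefore cannot be told apart from the fraction, and the fits with it do not decide whether Ctsf differed. The 8 microglia markers differed by 4.15 to 6.61 in controls and by 3.40 to 6.08 on cuprizone, and in controls Ctss was the only cathepsin whose difference lay within the range of the markers. On cuprizone Ctsa (3.63), Ctsl (3.78), Ctsh (3.88), Ctsb (4.28), Ctsc (4.30), Ctsd (4.75) and Ctsz (4.89) lay within it, Ctsf below it and Ctss (6.50) above it. How much of the nonmicroglia signal of each gene came from residual microglia was not tested.

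Ctsk, known for collagen breakdown in osteoclasts and fibroblasts, was counted more often in nonmicroglia. It had no counts in 18 of 37 microglia libraries and at most 22 in the others, but had counts in 33 of 37 nonmicroglia libraries. In wild-type controls it stood at 4.12 ± 5.47 CPM in microglia and 11.8 ± 13.5 CPM in nonmicroglia (SD, n = 5), with overlapping animals. On cuprizone all 6 wild-type microglia libraries had 0 counts, which allows 1.23 to 2.61 CPM per library at 3 counts, and the nonmicroglia of the same mice had 16.8 ± 11.9 CPM. It did not pass the filter on low counts there and was not tested between fractions.

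**Figure D1:**
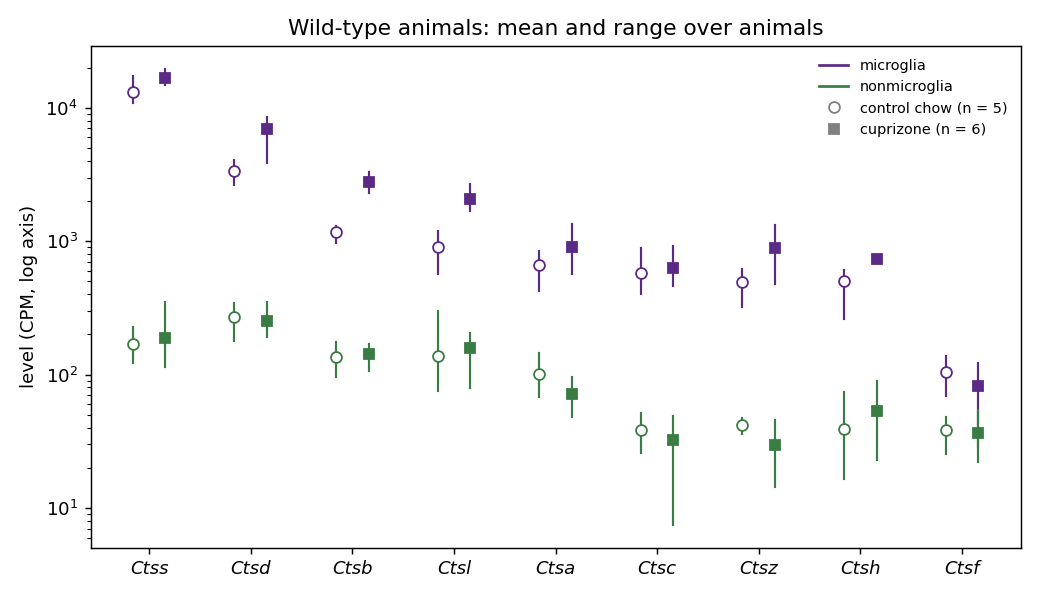
Level in CPM on a log axis of each cathepsin other than Ctsk in microglia and nonmicroglia of wild-type mice. Symbols are means and bars the range over 5 control or 6 cuprizone animals. The microglia range lies above the nonmicroglia range for Ctss and the other strongly enriched members. For Ctsf the ranges come close in controls and overlap on cuprizone, at 28.4 to 122.9 CPM in microglia and 22.0 to 54.0 CPM in nonmicroglia.

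The diet question is how demyelination changed these genes in microglia. In the average over genotypes Ctsb, Ctsd and Ctsz rose on cuprizone at both times, and at 12 weeks Ctsa, Ctsh and Ctsl did so too. Ctss missed the threshold, and Ctsc and Ctsf differed from control by 0.04 or less on the log2 scale at 12 weeks. In wild-type mice at 12 weeks the sum over the 10 genes was from 16294 to 19255 CPM in the 2 controls, animal 9145 among them. On cuprizone it was from 30324 to 31464 CPM. Ctss alone averaged 10790 and 15505 CPM in these groups. As a share of all counts the 10 genes took 1.69 and 1.98% against 2.89, 2.94 and 3.10% there. In knockouts at 12 weeks the shares overlapped, at 1.68, 1.93 and 2.13% on control chow and 2.09, 2.18 and 2.43% on cuprizone. In the average over genotypes edgeR called 3 of the 10 cathepsins higher at 5 weeks, against 1.33% of all 14087 genes tested, and 6 of 10 at 12 weeks, against 2.04%. None was called lower. The median log2 difference of the 10 was 0.36 at 5 weeks and 0.58 at 12 weeks, against 0.00 and 0.01 over all genes tested. These averages over genotypes were added after the values were seen. In such pools fewer cells of a type and less RNA per cell cannot be told apart.

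Ctsb, a cysteine protease with endopeptidase and carboxypeptidase activity, was called at both times in wild-type and in heterozygous mice. In wild-type microglia it stood at 999, 1118 and 1195 CPM in the controls at 5 weeks and 2138, 2458 and 2956 CPM on cuprizone, and at 12 weeks at 863 and 1095 CPM and 2288, 2411 and 2892 CPM. In heterozygous mice the values were 777, 986 and 989 CPM against 1760.0, 2094 and 2295 CPM at 5 weeks, and 1004, 1038, 1055 and 1139 CPM against 1723, 1938, 2399 and 2865 CPM at 12 weeks. In knockout mice they were 838, 974 and 1028 CPM against 1251, 1891 and 2430.2 CPM, and 847, 924 and 1057 CPM against 1485, 1871 and 2022 CPM. Within each genotype and time, every cuprizone animal lay above every control animal. Averaged over genotypes Ctsb rose by 1.10 ± 0.13 on the log2 scale at 5 weeks (adjusted p = 4.1e-08) and by 1.12 ± 0.13 at 12 weeks (adjusted p = 2.1e-08), and both calls held with any 1 library left out. Genotype by genotype the difference was 1.35 ± 0.26 in wild-type mice at 12 weeks (adjusted p = 0.00297), 1.16 ± 0.23 in heterozygous mice at 5 weeks (adjusted p = 0.00485) and 1.07 ± 0.20 there at 12 weeks (adjusted p = 0.000322). In knockout mice the differences of 0.97 ± 0.23 and 0.93 ± 0.23 missed the threshold (adjusted p = 0.0877 and 0.125).

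Ctsd, the main aspartic protease of the lysosome, was called in the genotype average at both times. Wild-type controls at 12 weeks had 3267 and 3611 CPM and wild-type mice on cuprizone 7679, 7742 and 7929 CPM, a difference of 1.14 ± 0.25 (adjusted p = 0.00967). Heterozygous controls at 12 weeks had 2426, 2669, 2688 and 3473 CPM and those on cuprizone 4441, 4973, 5288 and 6164 CPM, a difference of 0.89 ± 0.19 (adjusted p = 0.00207). In both genotypes the groups did not overlap. At 5 weeks the wild-type values were 2378, 2891 and 2976 CPM and 3612, 5115 and 6114 CPM, and the difference of 0.83 ± 0.22 missed the threshold (adjusted p = 0.12), though it passed by DESeq2 (adjusted p = 0.00346). Heterozygous mice at 5 weeks had 2273, 2329.7 and 2511 CPM on control chow and 3753, 3967 and 6713 CPM on cuprizone, a called difference of 1.01 ± 0.22 (adjusted p = 0.0155). The knockout mice of that time had 2449, 2672 and 3853 CPM on control chow and 2814, 2888 and 3823 CPM on cuprizone. Those groups overlapped, with a log2 difference of 0.09 ± 0.21. At 12 weeks the knockout values were 2154, 2409 and 2786 CPM and 3320.3, 3949 and 4841 CPM, which did not overlap but missed the threshold (0.73 ± 0.22, adjusted p = 0.388). The genotype average was 0.64 ± 0.12 at 5 weeks (adjusted p = 0.000887) and 0.92 ± 0.13 at 12 weeks (adjusted p = 8.09e-07).

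Ctsz, a carboxypeptidase of the cysteine class, moved much like Ctsd across animals. Heterozygous controls at 5 weeks had 180.2, 187 and 267 CPM and heterozygous mice on cuprizone 441, 446 and 752 CPM, without overlap, and the difference of 1.34 ± 0.29 was called (adjusted p = 0.0155). Wild-type values at 12 weeks were 505 and 548 CPM on control chow and 838, 911 and 1209 CPM on cuprizone, also without overlap, with a difference of 0.87 ± 0.33 that missed the threshold (adjusted p = 0.258). Knockout values at 12 weeks were 256, 347 and 354 CPM and 363, 610.0 and 759.9 CPM. Averaged over genotypes it rose by 0.91 ± 0.17 at 5 weeks (adjusted p = 0.000337) and 0.86 ± 0.17 at 12 weeks (adjusted p = 0.000566).

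Ctsa, which shields beta-galactosidase and neuraminidase from breakdown besides cutting peptides, was called with diet at 12 weeks and not at 5. Wild-type values at 5 weeks were 383, 566 and 757 CPM on control chow and 532, 609 and 650.4 CPM on cuprizone, which overlapped. Heterozygous values at 5 weeks were 301, 442 and 444 CPM and 536, 744 and 834 CPM, which did not overlap but missed the threshold (0.83 ± 0.26, adjusted p = 0.29). At 12 weeks the wild-type values were 602 and 688 CPM and 851, 1143 and 1239.8 CPM, and the heterozygous values 464, 471, 539 and 545 CPM and 819, 889, 938 and 1006 CPM, both without overlap. Knockout values at 12 weeks, 349, 489 and 891 CPM and 628, 683 and 821 CPM, overlapped. The heterozygous difference of 0.85 ± 0.23 was called (adjusted p = 0.0238), as was the genotype average of 0.63 ± 0.15 (adjusted p = 0.00801), while the 5-week average was 0.36 ± 0.15 (adjusted p = 0.301). The heterozygous call was lost without heterozygous control 7674 or 9463, or heterozygous cuprizone 1040 or 6296 (adjusted p from 0.0581 to 0.091), and the average without wild-type control 9145 (0.60, adjusted p = 0.0689). Whether the Ctsa change differed between the times averaged over genotypes was not tested.

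Ctsh, mainly an aminopeptidase, was called in heterozygous mice at 12 weeks, while its knockout values overlapped their controls at both times. Heterozygous mice at 12 weeks had 235, 314, 338 and 397 CPM on control chow and 532, 590.0, 705 and 707 CPM on cuprizone, a difference of 0.99 ± 0.22 (adjusted p = 0.00334) that was called with any 1 library left out. Wild-type mice had 234 and 535 CPM and 634, 651 and 664 CPM, a difference of 0.82 ± 0.29 (adjusted p = 0.215), the lower control being animal 9145, which stands apart. Knockout mice had 278, 355 and 380.1 CPM and 253, 263 and 365 CPM, overlapping, with a difference of -0.21 ± 0.25 (adjusted p = 0.902). The average of 0.53 ± 0.15 (adjusted p = 0.0255) lost its call when the libraries beyond 30 on the first component were left out (0.34, adjusted p = 0.429), with no filter on low counts (adjusted p = 0.103) and with noncoding share as a covariate (adjusted p = 0.0662). Its call was also lost without wild-type control 9145, heterozygous control 7674, knockout control 1744 or knockout cuprizone 9542, with adjusted p from 0.052 to 0.302.

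Ctsl, a strong lysosomal endopeptidase, varied widely within groups. Wild-type values at 12 weeks were 514 and 575 CPM on control chow and 1727, 1768 and 2483 CPM on cuprizone, without overlap. Those controls include animal 9145, which stands apart. On the first component, which Ctsl followed, the controls lay at 16.3 and 42.0 and the cuprizone libraries at -11.1, -6.44 and -2.87. The part of that component in the difference was not tested. Knockout controls at 5 weeks ran to 261, 457 and 1338 CPM, the lowest being animal 945, which stands apart, and knockout mice on cuprizone at 12 weeks had 609, 716 and 1779 CPM. Its wild-type difference at 12 weeks, 1.94 ± 0.58, missed the threshold (adjusted p = 0.128) and passed by DESeq2 (adjusted p = 0.0113). The genotype average of 1.04 ± 0.28 was called at 12 weeks (adjusted p = 0.0413) and lost its call when 1 library was left out in 10 cases: wild-type control 1932 or 9145, wild-type cuprizone 1746 or 3917, heterozygous control 943, heterozygous cuprizone 2476 or 9469, knockout control 1744 or 8635, and knockout cuprizone 9542. The adjusted p then lay between 0.0573 and 0.141. It was also lost without the libraries beyond 30 on the first component (0.99, adjusted p = 0.0754) and with noncoding share as a covariate (adjusted p = 0.0584). At 5 weeks the average was 0.85 ± 0.28 (adjusted p = 0.148), called by DESeq2 (adjusted p = 0.041) and by edgeR without knockout control 9470 (1.10, adjusted p = 0.0137).

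**Figure D2:**
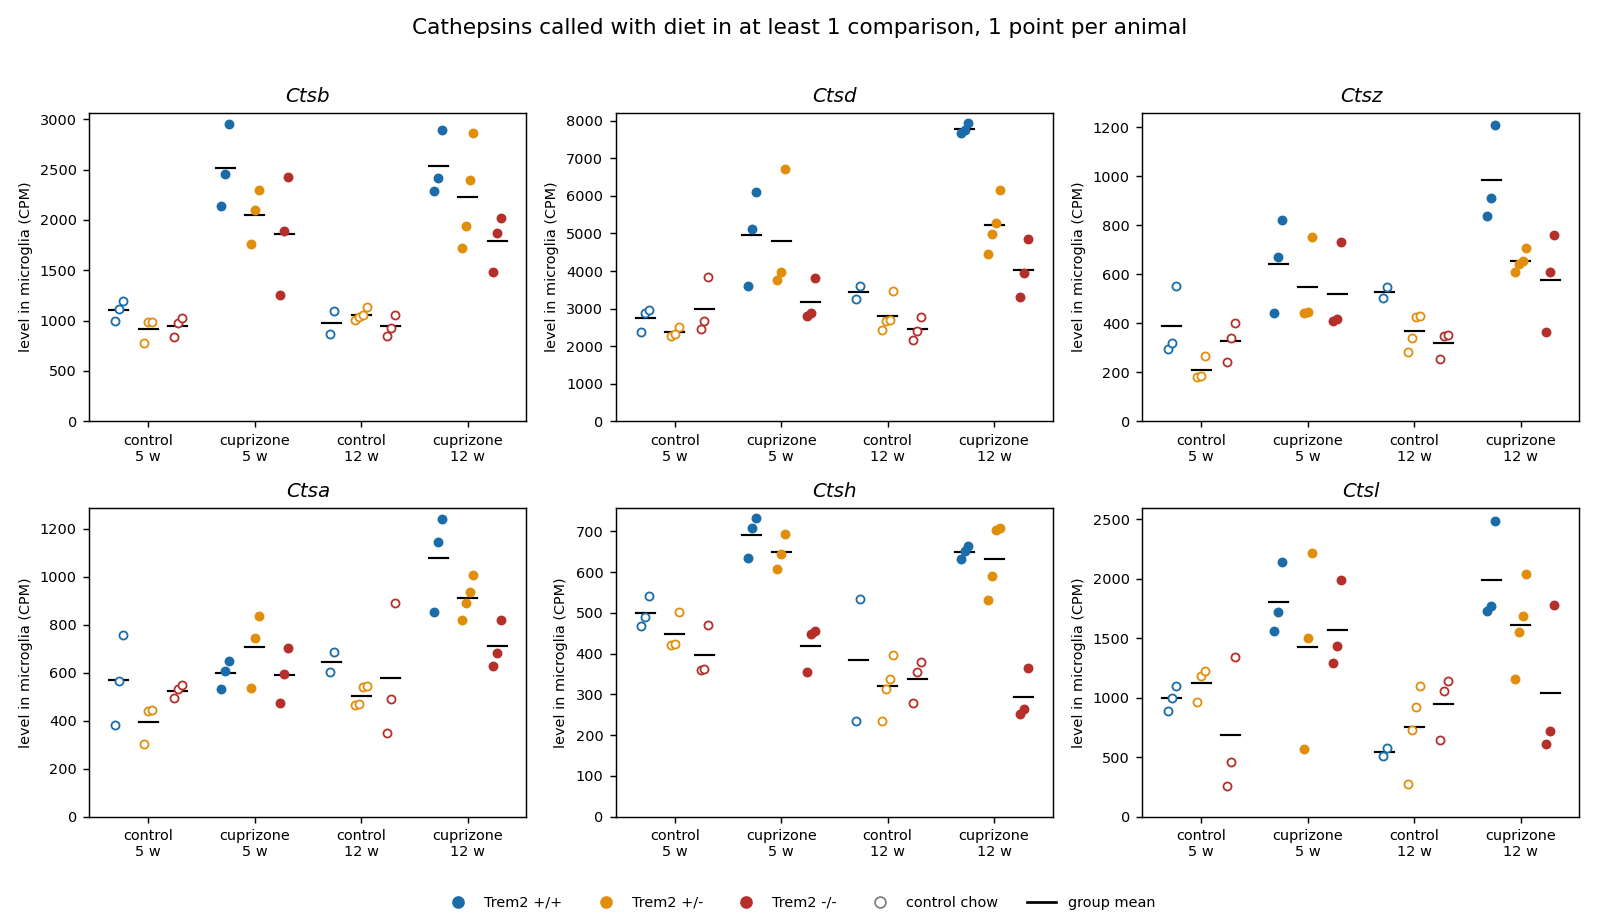
Levels in CPM of Ctsb, Ctsd, Ctsz, Ctsa, Ctsh and Ctsl in microglia, 1 point per animal; open points are control chow, filled points cuprizone, colours the 3 Trem2 genotypes and black bars group means. The cuprizone points of Ctsb lie above the controls of the same genotype and time throughout, those of Ctsd are highest in wild-type mice at 12 weeks, and the knockout points of Ctsh overlap their controls.

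The remaining members gave no call with diet in edgeR's main fit. Ctss ran from 9295 to 21662 CPM, with a median of 14029 CPM, over the 37 microglia libraries. In wild-type mice it stood at 9773 and 11808 CPM on control chow and 15148, 15227 and 16141 CPM on cuprizone at 12 weeks. The genotype average was 0.34 ± 0.11 (adjusted p = 0.101, and 0.0318 by DESeq2). That average also passed in an edgeR fit under another setting (adjusted p = 0.0152). Ctsc, the dipeptidyl peptidase that activates the serine proteases of neutrophil and lymphocyte granules, ran from 273 to 846 CPM, with a median of 512 CPM. Its average difference was 0.04 at 12 weeks, with a 95% interval from -0.29 to 0.37. Ctsf ran from 26.1 to 123 CPM, with a median of 83.3 CPM, with an average difference of -0.04 and an interval from -0.50 to 0.41. Differences within these intervals are not excluded at this number of mice.

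**Figure D3:**
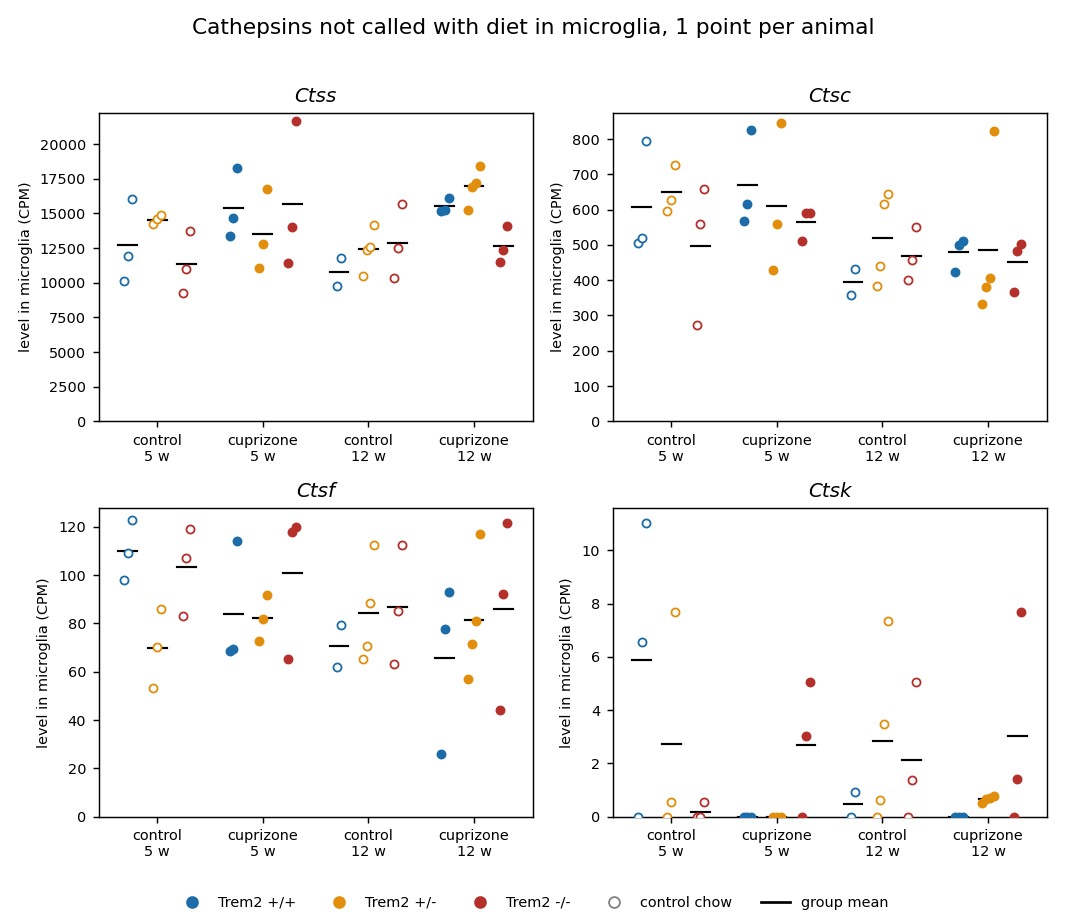
Levels in CPM of Ctss, Ctsc, Ctsf and Ctsk in microglia, 1 point per animal, drawn as for the other members. Control and cuprizone points of Ctsc and Ctsf overlap, the Ctsk panel holds libraries of at most 22 counts, and in Ctsc the highest heterozygous cuprizone point at 12 weeks is animal 2476 at 822 CPM.

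Counted by genotype, 1 cathepsin (Ctsb) was called higher in wild-type mice at 5 weeks and 3 (Ctsb, Ctsd, Ctsz) in heterozygous mice, against 0.142% and 0.263% of all genes tested. At 12 weeks 2 (Ctsb, Ctsd) were called in wild-type mice and 4 (Ctsa, Ctsb, Ctsd, Ctsh) in heterozygous mice, against 0.689% and 1.88%. In knockout mice edgeR called 0 at either time, against 0.0568% and 0.0284% of all genes in either direction. Of the 9 cathepsins other than Ctsk, 4 had an unadjusted p under 0.05 in knockouts at 5 weeks and 3 at 12 weeks. Of the 14087 genes tested, 945 and 1048 did. DESeq2 called 1 and 2 cathepsins higher there, against 27 and 32 of all genes, and limma voom 0 and 1, against 2 and 6. Without knockout cuprizone 8485 edgeR called Ctsb at 5 weeks (1.19, adjusted p = 0.0164). The calls in the single genotypes at 5 weeks depended on single mice. In wild-type mice Ctsb was lost without control 309 (adjusted p = 0.12) or cuprizone 9144 (0.0815). In heterozygous mice Ctsb was lost without control 9546 (0.154), and Ctsd and Ctsz without control 9546 or 4352 or cuprizone 1108 (0.169 to 0.274). In heterozygous mice at 12 weeks Ctsb, Ctsd and Ctsh were called with any 1 library left out. The wild-type calls at 12 weeks rest on 2 control animals: without animal 9145, Ctsb had an adjusted p of 0.279 and Ctsd of 0.39, and Ctsd had 0.061 without animal 1932 and 0.0505 without cuprizone animal 8043. With the libraries beyond 30 on the first component left out, neither wild-type call held (Ctsb 1.10, adjusted p = 0.281; Ctsd 0.96, adjusted p = 0.311), the lone control being assumed to vary like the other groups.

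**Figure D4:**
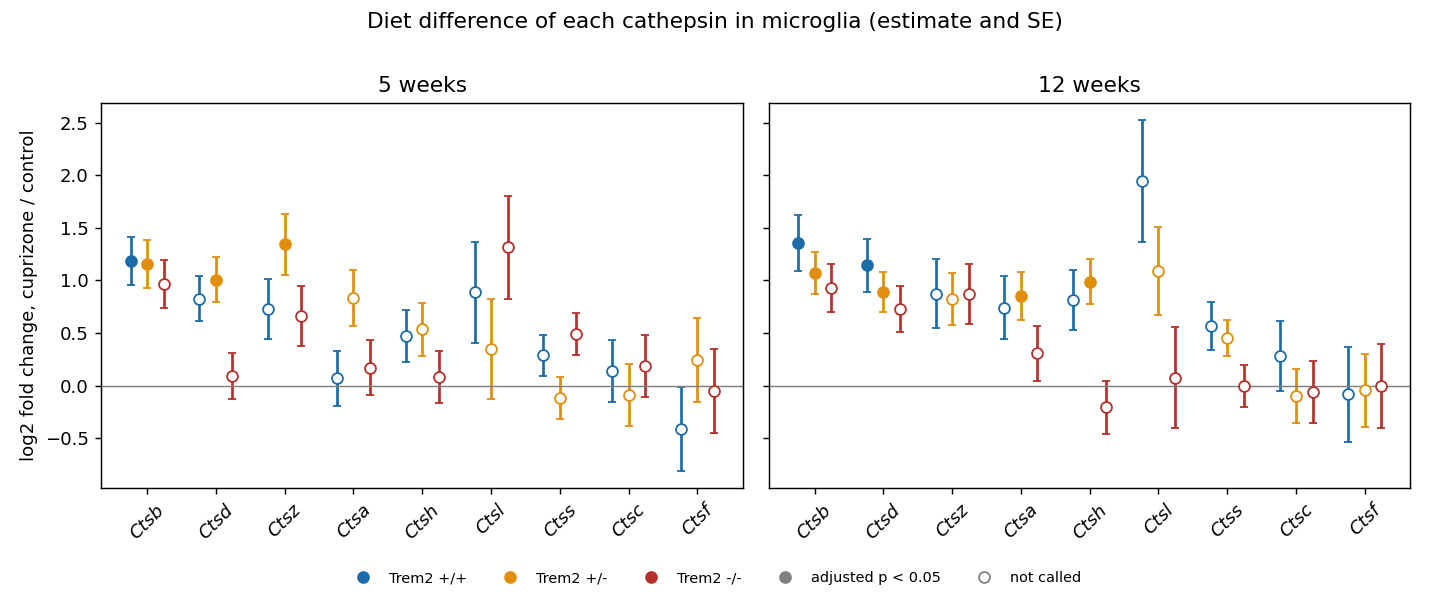
Log2 fold change of cuprizone over control in microglia for 9 cathepsins at 5 and 12 weeks in the 3 Trem2 genotypes; points are estimates, bars 1 SE, and filled points have an adjusted p under 0.05. All 3 genotypes lie above 0 for Ctsb, filled points are absent in the knockout, and Ctsc and Ctsf scatter around 0.

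Some markers of microglia identity fell on cuprizone. The summed level of the 8 markers was 25446 ± 3003 CPM in wild-type controls at 12 weeks (SD, n = 2) and 13088 ± 789 CPM on cuprizone (SD, n = 3), and in knockouts 25306 ± 2117 against 19928 ± 2875 CPM (SD, n = 3 each). In the average over genotypes 2 of these 8 markers were called lower at 5 weeks, against 0.27% of all genes, and 5 at 12 weeks, against 0.909%, and none higher. The neutrophil and border macrophage sums varied between mice within groups: neutrophil markers ran from 383 to 3465 CPM in wild-type controls at 12 weeks, from 708 to 1142 CPM in wild-type mice and from 598 to 5957 CPM in knockouts on cuprizone. No neutrophil or monocyte marker was called with diet in that average at either time, and 1 of 8 border macrophage markers was called lower at each. The part of these cells in the cathepsin changes was not tested.

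The genotype question is whether loss of Trem2 changed the cathepsins. In microglia of mice on cuprizone for 12 weeks, Ctsh and Ctsd were lower in knockouts than in wild-type mice. Ctsh was at 253, 263 and 365 CPM in knockouts and 634, 651 and 664 CPM in wild-type mice, with no overlap. The log2 difference was -1.16 ± 0.25 (adjusted p = 0.0112). Ctsd was at 3320.3, 3949 and 4841 CPM in knockouts and 7679, 7742 and 7929 CPM in wild-type mice, again with no overlap and a difference of -0.95 ± 0.22 (adjusted p = 0.0187). These were 2 of 10 cathepsins, against 0.327% of all genes called lower. Of the cathepsins 6 (Ctsa, Ctsb, Ctsd, Ctsh, Ctsl, Ctsz) had an unadjusted p under 0.05, as did 1387 of the 14087 genes tested. On control chow at 12 weeks Ctsd was already at 2154, 2409 and 2786 CPM in knockouts and 3267 and 3611 CPM in wild-type mice, without overlap, a difference of -0.53 ± 0.24 that missed the threshold (adjusted p = 0.709). Both calls depended on single mice. Ctsh was lost without wild-type 1746 or 3917 or knockout 1748 or 981 (adjusted p from 0.0537 to 0.104) and when the libraries apart were left out (-1.06, adjusted p = 0.0724). Ctsd was lost without wild-type 3917 or 8043 or knockout 1748 (adjusted p from 0.0728 to 0.183). Heterozygous mice on cuprizone had 532, 590.0, 705 and 707 CPM of Ctsh, and the knockouts were lower than these, with a log2 difference of -1.14 ± 0.24 (adjusted p = 0.00596), the 1 cathepsin called lower there against 0.752% of all genes. Without knockout 981 that adjusted p was 0.0892, and without the libraries apart 0.0523.

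In the same knockout libraries the summed markers of mature oligodendrocytes were 929.8 ± 459.7 CPM against 355 ± 98.9 in wild-type mice, and those of border macrophages 885 ± 159 against 460.0 ± 70.8 (SD, n = 3 each). The microglia markers summed to 19928 ± 2875 and 13088 ± 789 CPM. Of the 8 markers of each list, 2 of mature oligodendrocytes, 2 of microglia, 1 of border macrophages and 0 of neutrophils were called higher in knockout than in wild-type mice, against 0.114% of all genes. Against heterozygous mice, whose neutrophil sum ran from 111 to 349 CPM where that of knockouts ran from 598 to 5957 CPM, 1 neutrophil and 2 border macrophage markers were called higher, against 0.298%. Their part in the lower Ctsh and Ctsd was not tested.

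At 5 weeks on cuprizone edgeR called 0 cathepsins between knockout and wild-type mice (0.0781% of all genes in either direction) or between knockout and heterozygous mice (0.0639%), and DESeq2 and voom also called 0. Ctsd and Ctsh had an unadjusted p under 0.05 in both, where 724 and 790 of 14087 genes did. Ctsh stood at 355, 449 and 454 CPM in knockouts and 636, 708 and 733 CPM in wild-type mice (-0.72 ± 0.25, adjusted p = 0.929). On control chow, knockout and wild-type microglia gave 0 calls at 5 weeks (0.0071% of all genes) and 0 at 12 weeks (0.0213%), and 0 by DESeq2 and voom. Unadjusted, 0 and 2 cathepsins (Ctsd and Ctsz) passed 0.05, against 610 and 972 of 14087 genes. Heterozygous against wild-type microglia gave 0 edgeR calls in all 4 comparisons. Of all genes, 0% were called on control chow at 5 and 12 weeks and on cuprizone at 5 weeks, and 0.121% on cuprizone at 12 weeks. Unadjusted, Ctsz passed 0.05 in controls at 5 weeks, against 662 of 14087 genes, and Ctsd and Ctsz on cuprizone at 12 weeks, against 1204. In the latter voom called Ctsd (-0.60 by edgeR, -0.63 with adjusted p = 0.0226 by voom). DESeq2 called 0 in the 4.

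The difference of the diet responses between genotypes was tested directly, and no cathepsin was called by edgeR. For Ctsh at 12 weeks the 95% interval of the log2 difference ran from -1.77 to -0.28 for knockout minus wild type (adjusted p = 0.292) and from -1.84 to -0.55 for knockout minus heterozygous (adjusted p = 0.138), the latter called by DESeq2 (adjusted p = 0.0142). For Ctsd at 5 weeks the knockout minus wild-type interval ran from -1.33 to -0.14 (adjusted p = 1). For Ctsb at 12 weeks it ran from -1.09 to 0.24 (adjusted p = 0.707), so a knockout response of Ctsb equal to the wild-type one and one smaller by up to the lower bound both lie within it. Of all genes, 0.0071% and 0.0284% were called in knockout minus wild type at 5 and 12 weeks, and 0.0142% and 0.128% in knockout minus heterozygous. Unadjusted, 1 cathepsin (Ctsd) and 2 (Ctsh, Ctsl) passed 0.05 in the former pair and 2 (Ctsd, Ctss) and 1 (Ctsh) in the latter. Of the 14087 genes tested, 640 and 1495 passed in the former pair and 969 and 1389 in the latter. Apart from Ctsh, DESeq2 called none in the 4, and voom called none. That a cathepsin was called in wild-type or heterozygous mice and not in knockouts is by itself no test of a difference between them. Outside edgeR's filtered fit the difference passed for Ctsh in DESeq2, as above, and for Ctsl in knockout minus wild type at 12 weeks with no filter on low counts (-1.84, adjusted p = 0.000858, against -1.87 and 0.354 with the filter).

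Between 5 and 12 weeks on cuprizone edgeR called no cathepsin in any genotype, against 0.0994% of all genes in wild-type, 0.0213% in heterozygous and 0% in knockout mice. In wild-type mice Ctsa was at 532, 609 and 650.4 CPM at 5 weeks and 851, 1143 and 1239.8 CPM at 12 weeks, with no overlap. The difference of 0.85 ± 0.26 had an adjusted p of 0.371, and of 0.0467 by DESeq2 and 0.0401 by voom. Ctsd went from 3612, 5115 and 6114 CPM to 7679, 7742 and 7929 CPM (0.67 ± 0.22, adjusted p = 0.398; 0.0447 by DESeq2 and 0.0122 by voom). Unadjusted, 3 cathepsins passed 0.05 in wild-type, 0 in heterozygous and 1 (Ctsh) in knockout mice, against 983, 989 and 1316 of 14087 genes. DESeq2 and voom called none in the last 2 genotypes. On control chow, averaged over genotypes, edgeR called 0 between the times against 0.0071% of all genes, and DESeq2 and voom called 0. Ctsh and Ctsz had an unadjusted p under 0.05 there, as did 1118 of 14087 genes.

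In nonmicroglia none of the cathepsins was called in any of 5 comparisons. Ctsb ran from 92.8 to 219.5 CPM, with a median of 145 CPM, over 37 libraries, and its average diet difference was -0.13 ± 0.19 at 5 weeks and 0.20 ± 0.19 at 12 weeks (adjusted p = 1 and 0.911). Ctsd ran from 185 to 371 CPM, with a median of 239 CPM, with -0.15 ± 0.18 and -0.01 ± 0.18. The edgeR test called 0.443% of 16915 genes with diet at 5 weeks and 0.497% at 12 weeks, 0% between knockout and wild-type mice on cuprizone at either time, and 0.964% between the times on cuprizone. For the cathepsins 0 had an unadjusted p under 0.05 in the 4 diet and genotype comparisons. Between the times 3 (Ctsb, Ctsf, Ctsl) did, against 1875 of the 16915 genes. DESeq2 and voom called 0 in all 5.

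The diet response was also compared between the fractions of the same brains, a comparison added after the values were seen. Averaged over genotypes, the response of Ctsb was larger in microglia by 1.23 ± 0.22 at 5 weeks (adjusted p = 0.000283) and by 0.92 ± 0.22 at 12 weeks (adjusted p = 0.0133). At 12 weeks that of Ctsd was larger by 0.91 ± 0.21 (adjusted p = 0.0112) and that of Ctsz by 1.41 ± 0.30 (adjusted p = 0.00328). These are 1 of the 10 cathepsins at 5 weeks, against 0.277% of 18408 genes called higher, and 3 at 12 weeks, against 0.505%. With the animal as a replicate block the calls were 3 at 5 weeks (Ctsb; Ctsd 0.75, adjusted p = 0.0464; Ctsl 1.14, adjusted p = 0.00408) and 4 at 12 weeks, Ctsl being added (1.12, adjusted p = 0.00423). In limma voom none was called at either time (Ctsb adjusted p = 0.296 and 0.61, Ctsd 0.81 and Ctsz 0.237 at 12 weeks). Without wild-type control animal 1932 the 12-week adjusted p of Ctsb was 0.141, and without 9145 that of Ctsd was 0.157.

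**Figure D5:**
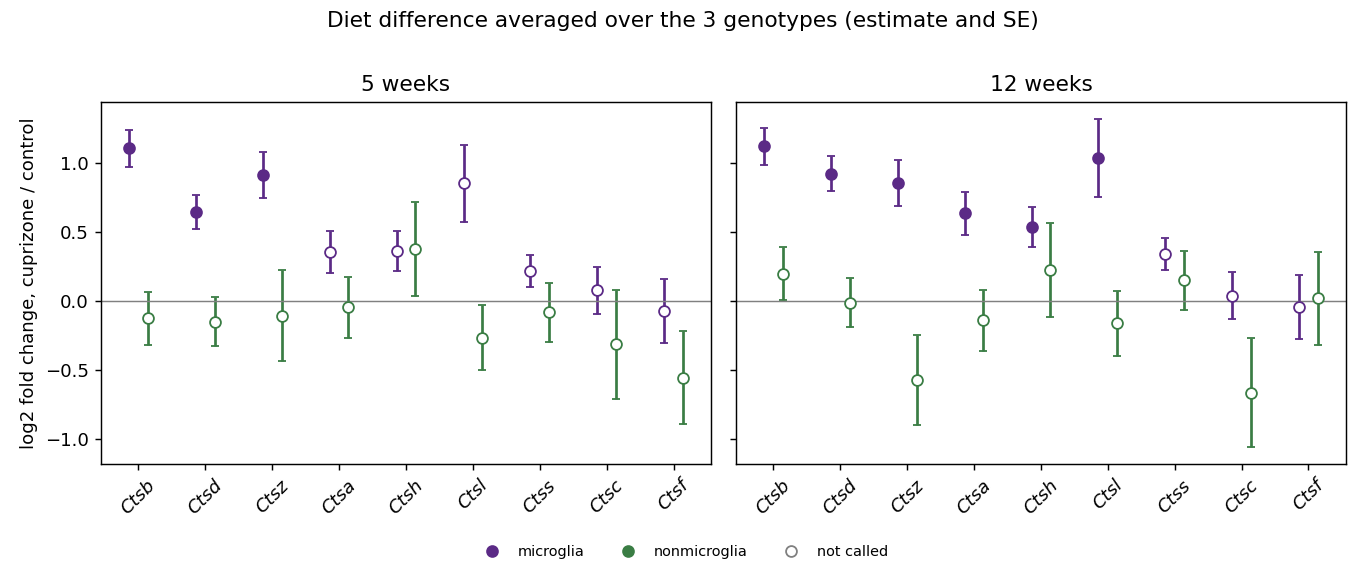
Log2 fold change of cuprizone over control, averaged over the 3 genotypes, for 9 cathepsins in microglia and nonmicroglia at 5 and 12 weeks; points are estimates, bars 1 SE, and open points were not called. Ctsb lies near 1.1 in microglia at both times, and filled points occur in microglia only.

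The proteins that restrain, process and deliver cathepsins were taken as lists. Of 12 inhibitor genes 6 could be tested in microglia, and 2 rose with cuprizone in the genotype average at both times, against 1.33% and 2.04% of all genes: Cst7, which encodes cystatin F, by 3.90 ± 0.34 at 12 weeks (adjusted p = 2.13e-09), and Cstb, which encodes stefin B, by 1.501 ± 0.19 (adjusted p = 6.74e-08). In knockouts on cuprizone at 12 weeks Cstb was lower than in wild-type mice, at -1.28 ± 0.31 (adjusted p = 0.0387), and 2 of 6 were lower than in heterozygous mice, against 0.752% of all genes, Cst7 at -1.996 ± 0.48 (adjusted p = 0.0334) and Cstb at -1.93 ± 0.31 (adjusted p = 7.42e-05). The Cstb response itself was smaller in knockouts than in heterozygous mice at 12 weeks, with a log2 difference of -2.33 ± 0.42 (adjusted p = 0.00462). In nonmicroglia Cst3, the secreted cystatin C, fell with cuprizone at 5 weeks, with a log2 change of -0.68 ± 0.15 (adjusted p = 0.0077).

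Of 6 genes for processing and partner proteins, 1 was called higher in the 12-week average, against 2.04% of all genes. It was Grn, whose product progranulin binds prosaposin and is split in the lysosome, with a rise of 0.73 ± 0.14 (adjusted p = 0.000364). At 5 weeks 0 of 6 were called by edgeR, against 1.33% of all genes called higher, the smallest p being that of Grn (0.43 ± 0.14, adjusted p = 0.0992). Of 9 genes for delivery to lysosomes 0 were called in either average, against 1.33% and 2.04% of all genes called higher. Nearest was Gnptab, a subunit of the enzyme that makes the mannose 6-phosphate tag (1.23 ± 0.36, adjusted p = 0.0682 at 5 weeks and 1.16 ± 0.38, adjusted p = 0.0769 at 12 weeks). Of the 4 transcription factor genes for lysosomes, 0 were called in either average, against the same shares, Mitf being nearest at 12 weeks (0.56 ± 0.21, adjusted p = 0.165). Of 25 other lysosomal genes 8 rose at 5 weeks, against 1.33% of all genes, and 7 at 12 weeks, against 2.04%, and none fell. Cd63, a tetraspanin of late endosomes, rose by 1.55 ± 0.13 at 12 weeks (adjusted p = 6.64e-13) and Npc2, which carries cholesterol out of lysosomes, by 1.23 ± 0.13 (adjusted p = 1.62e-09). Lgals3 rose by 2.89 ± 0.44 (adjusted p = 8.77e-05) and Atp6v1a, a subunit of the proton pump, by 0.97 ± 0.20 (adjusted p = 0.00118). The median log2 difference of this list was 0.42 at 5 weeks and 0.55 at 12 weeks, against 0.00 and 0.01 over all genes tested. In knockouts on cuprizone at 12 weeks Cd63 was lower than in wild-type mice, at -1.37 ± 0.23 (adjusted p = 0.000235). Of 13 other cathepsin genes only 3 passed the filter in microglia, and 1 (Ctse, at very low counts) was called higher in the 5-week average, against 1.33% of all genes.

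Over the 37 microglia libraries Ctsa, Ctsb, Ctsd and Ctsz varied together, with Pearson r of log2 CPM between 0.60 (Ctsa with Ctsb) and 0.87 (Ctsd with Ctsz). Other pairs reached the same range: r was 0.69 for Ctsl with Ctss, 0.64 for Ctsh with Ctsl and for Ctsb with Ctsh, and 0.63 for Ctsb with Ctsl. Ctsc with Ctsd gave -0.11 and Ctsf with Ctsd -0.33. Among 4289 genes of at least 5 in mean log2 CPM, the pattern most like that of Ctsb was Cst7 (r = 0.91), then Apoe (0.89) and Clec7a (0.87). Nearest to Ctsd were Ctsz, Cd63 (0.86) and Apoe (0.86), and nearest to Ctsz were Ctsd, Grn (0.81) and Cpd (0.81). Nearest to Ctsa were Pld3 (0.82), Grn (0.80) and Ctsd (0.79). The nearest patterns of the other members came from other genes: Tomm7 (0.82), Ssr4 (0.81) and Cstb (0.80) for Ctsh, Cd9 (0.91), Ndufa1 (0.90) and Mpeg1 (0.89) for Ctsl, and Ndufa6 (0.85), Rpl30 (0.83) and Gas5 (0.83) for Ctss. For Ctsc they were Selenot (0.72), Pdia6 (0.69) and Atxn7l3b (0.68), and for Ctsf Tlr3 (0.61), Igfbp4 (0.55) and Bola1 (0.55). Ctsk, at few counts, gave Ppp1r3b (0.57), S100a6 (0.54) and S100a9 (0.53). These are descriptions over libraries that share diet groups, genotypes and sequencing depth.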

How the data were processed

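Libraries were made from polyadenylated RNA with Lexogen's QuantSeq 3' tag kit, per the labels. The deposited table holds raw read counts per gene of 74 libraries; the submitters' processing notes name STAR, MultiQC, FastQC 0.11.5, the build GRCm38.p6 and R 3.4.3. Not given in the sources used here are the counter, its strand setting and whether molecular identifiers were used. All 74 count columns matched a sample.

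The members and lists were chosen with earlier results of these data known. Counts were fitted in R 4.3.3 with edgeR 4.0.16 (quasi-likelihood, trimmed-mean scaling, filterByExpr at 10 counts, 12 group means and sex per fraction), with p-values adjusted over all genes by the Benjamini-Hochberg method over each of 35 comparisons, 4 of them added after values were seen. Fractions were compared in wild-type mice with week and sex as covariates, and diet responses between fractions over all 74 libraries. Standard errors are the log2 fold change over the root of F, and 95% intervals are 1.96 of them. All 10 cathepsins were to be named in each comparison, up to 4 called members of each other list (or the one with the smallest p), and the 3 genes of highest correlation with each cathepsin. Gene positions come from GENCODE's GRCm38 annotation. Alternatives were DESeq2 1.42.0 (its size factors and its Wald test), limma 3.58.1 voom with quality weights, no filter, no sex term, noncoding share as a covariate, each library left out with the dispersion trend kept (each animal with both its libraries, for the diet responses compared between fractions), libraries beyond 30 on the first component left out, and the animal as a replicate block. The fractions pair because each animal gave both, and the correlation of their deviations lay between -0.0215 and 0.184 by animal. The edgeR test of heterozygous cuprizone against control microglia at 12 weeks was tried first on simulated counts. The other comparisons and tools were not tried this way. Replicates are separate animals.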

Additional observations from a re-analysis of the deposited data

Results flagged for a closer look

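The Ctsc level of heterozygous cuprizone animal 2476 at 12 weeks was 822 CPM in microglia, while the other 3 animals of its group lay between 333 and 405 CPM. The gap to the nearest of them was 0.853 of the group's range. It was the single such case among 40 sets tested, 10 genes in each of the 4 groups of 4 animals over both fractions, where chance flags about 1 in 20.

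By edgeR's test of the difference averaged over genotypes, added after the values were seen, the diet responses of the fractions differed for 3 cathepsins. Under limma voom 0 were called at either time, and the 12-week calls of Ctsb and Ctsd were each lost with 1 animal left out. The log2 response was larger in microglia than in nonmicroglia for Ctsb by 1.23 at 5 weeks and 0.92 at 12 weeks, for Ctsd by 0.91 at 12 weeks and for Ctsz by 1.41 at 12 weeks.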

How the results depend on the processing

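The counts of cathepsins called were recomputed under each alternative, as was each of 65 single-gene differences, those called under at least 1 setting; none of these turned its direction, and differences called under no setting, such as those of Ctsc and Ctsf with diet, were not followed. Of the single-gene values, 419 kept their side of the threshold under the other settings, 37 came to pass it and 17 no longer passed; with 1 library or animal left out these were 706, 7 and 43. Of the cathepsins called with diet in wild-type microglia, 1 at 5 weeks became 2 under DESeq2, voom and no filter, and 2 at 12 weeks became 3 (with Ctsl) under DESeq2 and no filter and 0 without the libraries beyond 30 on the first component. In heterozygous mice 4 at 12 weeks became 5 under DESeq2 and voom (with Ctsz) and no filter (with Ctsl), and 3 without the libraries apart. In knockouts 0 at 5 weeks became 1 under DESeq2 and 2 with no filter, and 0 at 12 weeks became 2 under DESeq2 and 1 under voom. In the 12-week average Ctss came to pass under DESeq2 and in an edgeR fit under another setting. Of the 6 called in that average, 3 remained without the libraries apart (Ctsb, Ctsd, Ctsz). The 2 lower in knockout than wild-type mice on cuprizone at 12 weeks became 1 (Ctsd), and the 1 lower than in heterozygous mice became 0. Under 1 other setting Ctsl also passed as lower in knockout than in wild-type mice on cuprizone at 12 weeks. The knockout minus heterozygous response at 12 weeks gained 1 (Ctsh) under DESeq2 and the knockout minus wild-type one 1 (Ctsl) with no filter. The change over time in wild-type mice on cuprizone gained 2 (Ctsa, Ctsd) under DESeq2 and voom, and heterozygous against wild-type mice on cuprizone at 12 weeks 1 (Ctsd) under voom. For the response between fractions at 5 weeks, 1 call became 2 with DESeq2's size factors or without the libraries apart. It became 3 under DESeq2's test, no filter or the animal as a replicate block, and 0 under voom. At 12 weeks 3 calls became 0 under voom and 4 under settings that included DESeq2's test and the replicate block. The replicate block left 9 and 9 called between fractions and changed no other call. The cause was not tested.

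With 1 library left out, the cathepsins called with diet at 5 weeks ranged from 0 to 1 in wild-type mice (0 without control 309 or cuprizone 9144), 0 to 3 in heterozygous mice (0 without control 9546, 1 without control 4352 or cuprizone 1108) and 0 to 1 in knockouts (1 without cuprizone 8485). At 12 weeks the range was 0 to 2 in wild-type mice (0 without control 9145, 1 without control 1932 or cuprizone 8043) and 3 to 6 in the average (3 without wild-type control 9145). Calls between knockout and wild-type mice on cuprizone at 12 weeks ranged from 0 to 2 (0 without knockout 1748 or wild-type 3917, 1 without wild-type 1746 or 8043 or knockout 981), and between knockout and heterozygous mice from 0 to 1 (0 without knockout 981). The response between fractions at 5 weeks ranged from 1 to 3 (2 without knockout control 1104 or 945, 3 without wild-type cuprizone 743). With 1043961 counts in the shallowest microglia library, Ctsk stays near the limit of detection in microglia and its differences there were not read.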
